A study of Mus musculus with 9 samples.

Results

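The CCN family and the genes around the coactivator YAP were followed in irradiated mouse salivary gland through 10 genes. They are Ccn1, Ccn2, Ccn3 and Ccn5 of the CCN family, Amotl2, Ankrd1, Lats2 and Ajuba, which are known as YAP-responsive or Hippo pathway genes, and Yap1 and Tead1, which encode YAP and a transcription factor it binds. The genes were picked by symbol from the 54532 gene rows of the count table, because Ccn1 had its highest level at 60 days and it was asked whether the others shared that peak. The values of Ccn1 at 60 days are therefore a description, with no test. Of the 10 genes, 9 passed the filter on low counts, which left 15224 genes, and Ankrd1 did not.

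The libraries came from submandibular glands of wild-type (WT) mice given 10 Gy, with 3 libraries each at 30, 60 and 90 days after irradiation. Every group carried the same dose, and non-irradiated glands are not analysed here, so a peak at 60 days means higher than at the other irradiated times only. RNA came from 4 sections of a gland, each 50 µm thick, so all cell types of the gland are mixed. The labels used here give no strain, age, sex or batch. Time since irradiation and age of the mice cannot be told apart. The labels do not say that the samples of a time point came from separate mice, so each SD, n and p-value measures the spread between these samples, which may be technical.

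CCN proteins are secreted, cysteine-rich matricellular proteins that bind integrins, heparan sulfate proteoglycans and growth factors. YAP and its relative TAZ enter the nucleus when the Hippo kinases, among them the LATS kinases, are inactive, and there they bind TEAD factors on DNA. Ccn1 and Ccn2 are textbook targets of YAP and TEAD, are also driven by serum response factor and by AP-1 factors, and are used as readouts of cell stretch, matrix stiffness and injury.

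A short promoter window was available from RefSeq (build GRCm38.p6) for 6 of the 10 genes, Ccn1, Amotl2, Ankrd1, Ajuba, Lats2 and Yap1, and not for Ccn2, Ccn3, Ccn5 or Tead1. Each window runs from 250 bases before to 50 bases after a start that RefSeq gives for the gene. That start can differ from the outer GENCODE gene position printed with each gene below. The windows of Amotl2, Lats2 and Ankrd1 lie inside the GENCODE gene, and that of Ajuba lies just upstream of it. All 6 genes held the core TEAD motif GGAATG, searched on both strands, in a window, whereas 14.7% of the 32817 windows in the whole table held it. Lats2 has a further window without the motif. The 4 windows printed here belong to Ccn1 and to 3 other genes that carry the same letters, of which Amotl2 and Ajuba had measurable levels and Ankrd1 did not. They are written 5′ to 3′ along the gene's strand, with the motif or its reverse complement in capitals, at chr3:145649936-145650235 (minus strand), chr9:102717554-102717853 (plus strand), chr14:54577612-54577911 (minus strand) and chr19:36119795-36120094 (minus strand), in that order.
Ccn1: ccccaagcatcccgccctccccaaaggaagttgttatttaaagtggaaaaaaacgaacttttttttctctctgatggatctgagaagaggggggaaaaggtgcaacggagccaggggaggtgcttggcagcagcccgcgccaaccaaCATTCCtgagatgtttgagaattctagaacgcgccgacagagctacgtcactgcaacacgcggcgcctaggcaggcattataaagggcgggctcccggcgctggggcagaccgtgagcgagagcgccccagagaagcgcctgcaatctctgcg
Amotl2: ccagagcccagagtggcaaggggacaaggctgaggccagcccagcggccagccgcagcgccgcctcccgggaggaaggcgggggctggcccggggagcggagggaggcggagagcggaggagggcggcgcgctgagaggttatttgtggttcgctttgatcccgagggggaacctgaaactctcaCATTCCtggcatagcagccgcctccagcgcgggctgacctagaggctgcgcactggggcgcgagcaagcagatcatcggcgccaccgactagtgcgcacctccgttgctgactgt
Ajuba: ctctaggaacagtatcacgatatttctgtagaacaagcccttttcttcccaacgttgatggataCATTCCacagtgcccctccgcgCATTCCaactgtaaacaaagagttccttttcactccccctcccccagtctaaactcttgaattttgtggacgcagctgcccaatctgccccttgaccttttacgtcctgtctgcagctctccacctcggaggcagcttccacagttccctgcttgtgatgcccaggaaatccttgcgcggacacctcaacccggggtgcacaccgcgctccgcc
Ankrd1: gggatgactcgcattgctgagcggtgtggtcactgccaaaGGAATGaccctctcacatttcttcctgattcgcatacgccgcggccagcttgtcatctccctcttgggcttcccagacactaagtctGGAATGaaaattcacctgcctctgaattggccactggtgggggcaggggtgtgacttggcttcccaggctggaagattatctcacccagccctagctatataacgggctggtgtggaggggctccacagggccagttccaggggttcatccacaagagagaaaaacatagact
The motif starts 103 bases before the RefSeq start of the window in Ccn1 and 65 bases before that in Amotl2. Ajuba and Ankrd1 hold 2 copies each. The AP-1 motifs TGACTCA and TGAGTCA, which are reverse complements of each other, the cyclic AMP response element TGACGTCA and the CArG box of serum response factor were not found in these windows. They were found in 5.20%, 1.79% and 1.63% of all windows. These matches are letters in a window and were not tested as binding sites.

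**Figure D1:**
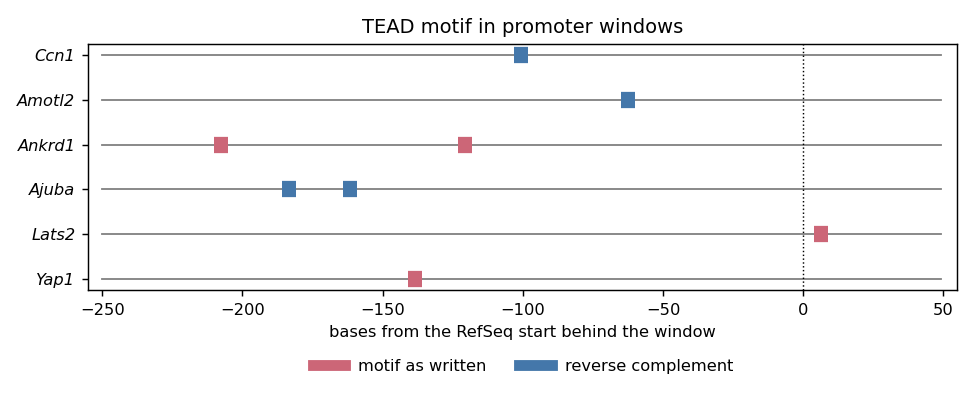
Position of the TEAD core motif in the promoter windows of 6 genes, in bases from the RefSeq start behind each window. Each grey line is a window, red boxes mark the motif as written and blue boxes its reverse complement, and the box of Lats2 lies just after that start.

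Total counts were 16541396 to 17179500 at 30 days, 21722141 to 24880803 at 60 days and 20410818 to 26065856 at 90 days. Levels are counts relative to the library total (CPM) after scaling with trimmed mean of M-values (TMM) factors. A gene with 3 counts would stand at 0.101 to 0.213 CPM, depending on the library. The single secretory gene Mucl2 took 31.4% to 42.8% of the counts, and the acinar markers Aqp5, Bhlha15, Mucl2 and Prol1 were detected. Glands are mixtures, so fewer cells of a type and less RNA per cell cannot be told apart in any value below.

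Ccn1 (ENSMUSG00000028195, chromosome 3, 145646976 to 145649981, minus strand) encodes CYR61, an integrin ligand of injury and matrix remodelling. Its level was 3.47, 3.51 and 3.43 CPM in the 3 libraries at 30 days, on 49, 59 and 58 counts. At 60 days it was 21.1, 19.4 and 25.1 CPM, on 488, 428 and 601 counts, and at 90 days 7.11, 6.74 and 5.82 CPM, on 211, 196 and 116 counts. All 3 libraries at 60 days lay above all others, and those at 90 days lay above those at 30 days. The means were 3.47 ± 0.0367 CPM on day 30, 21.8 ± 2.94 CPM on day 60 and 6.56 ± 0.664 CPM on day 90 (SD, n = 3). The fitted difference was 6.28-fold between 60 and 30 days (log2 2.65, SE 0.17) and 4.56-fold between 60 days and the mean of the other times (log2 2.19). From 60 to 90 days the log2 difference was -1.73, and from 30 to 90 days it was 0.92 (SE 0.17), or 1.89-fold. The spread at 30 days was below the 0.468 CPM that counting alone would give, so that SD understates the error of the mean. Over 16 alternative ways of processing the log2 difference of 60 against 30 days ran from 2.54 to 2.73.

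**Figure D2:**
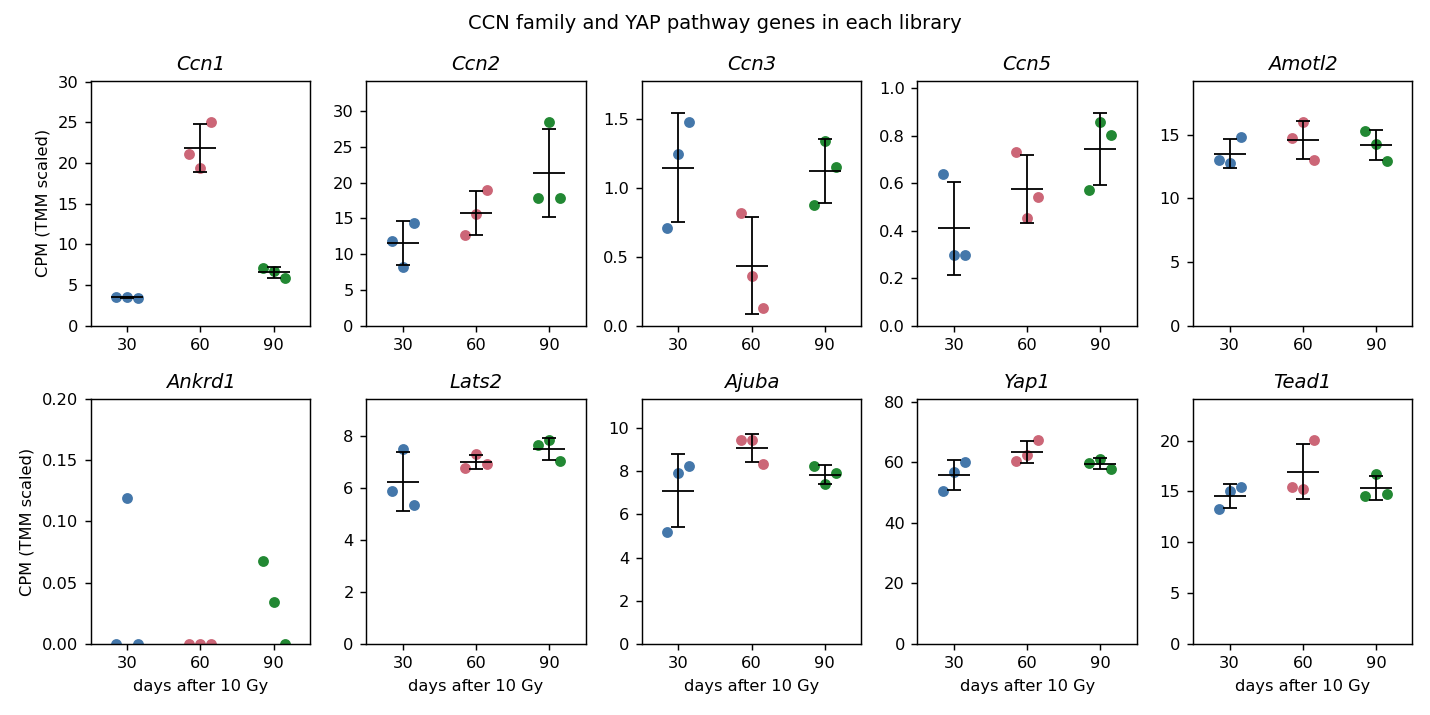
Level of each of the 10 genes in every library, in CPM after TMM scaling, against days after 10 Gy. Points are libraries, lines and bars are mean and SD of 3 libraries except for Ankrd1, which is shown as points only. Ccn1 alone stands at 19.4 to 25.1 CPM on day 60 with no library of another time near it.

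None of the other 8 genes tested differed between 60 and 30 days, between 90 and 60 days, between 90 and 30 days, or between 60 days and the mean of the other times, at an adjusted p under 0.05 in edgeR's quasi-likelihood test. Over all 15224 genes the shares called were 1.56%, 0.256%, 3.57% and 0.256%. At an unadjusted p under 0.05 each of these comparisons held 1 of the 8 genes, Ccn3 in 3 of them and Ccn2 in the comparison of 90 with 30 days. The shares of all genes at that level were 12.4%, 10.8%, 16.8% and 9.45%. DESeq2 called 0, 0, 1 and 0 of the 8, the 1 being Ccn2. The median log2 difference of the 8 genes from 30 to 60 days was 0.20, against -0.00 for all genes, and for 60 days against the mean of the other times it was 0.07, against 0.01. With scaling by library size alone the latter pair was 0.01 and -0.06, and the values of Ccn2, Amotl2 and Lats2 in that comparison turned to -0.05, -0.00 and -0.04. The comparisons share libraries and are given side by side, not as support for each other.

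The 95% intervals of the fit give the range of differences these libraries allow for the 8 genes. For 60 against 30 days the upper bound was highest for Ccn5, at 3.26-fold, and next for Ccn2, at 1.96-fold. For 60 days against the mean of the other times no upper bound was above 2.06-fold, again that of Ccn5. The intervals of Ccn5 and Ccn3, which rest on the fewest counts, were the widest.

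**Figure D3:**
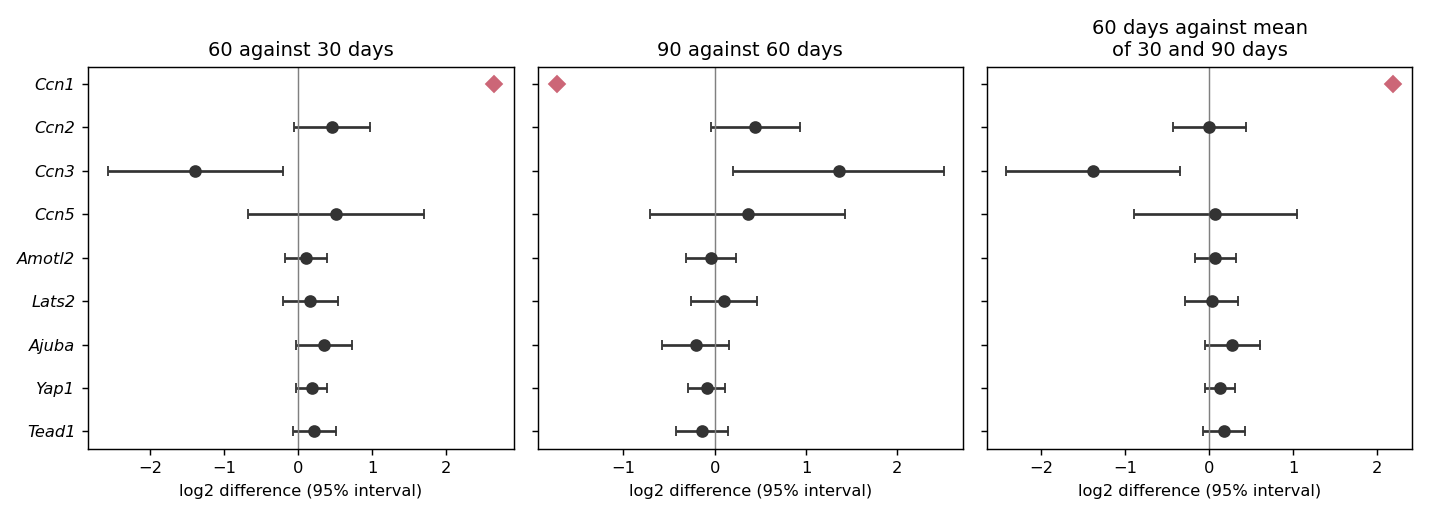
Log2 differences of the 9 genes that passed the filter in 3 comparisons, with 95% intervals from the fit. Ccn1, chosen for its peak, is drawn as a red diamond without an interval at 2.65, -1.73 and 2.19, while the intervals of Ccn3 lie below 0 at 60 days.

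Ccn2 (ENSMUSG00000019997, chromosome 10, 24595442 to 24598683, plus strand) encodes connective tissue growth factor, a matricellular protein of fibroblasts and endothelium known from fibrosis. Its level was 11.9, 8.26 and 14.4 CPM on day 30, 12.7, 15.6 and 18.9 CPM on day 60 and 17.8, 28.5 and 17.9 CPM on day 90. The highest library was 90-day sample 2, and the 60-day libraries overlapped both other times. The means were 11.5 ± 3.08, 15.8 ± 3.13 and 21.4 ± 6.17 CPM (SD, n = 3). The log2 difference of the 60-day level from the mean of the other times was 0.00 (95% interval -0.43 to 0.44, adjusted p = 0.996, edgeR). Its highest mean was at 90 days, where that of Ccn1 was at 60 days. For 90 against 60 days the log2 difference of Ccn2 was 0.44 (95% interval -0.05 to 0.93, adjusted p = 0.511, edgeR). For 90 against 30 days the log2 difference was 0.90 (SE 0.23, 1.86-fold, 95% interval 0.39 to 1.41), with an unadjusted p of 0.00228 and an adjusted p of 0.0574 in edgeR, on the far side of the threshold. The 90-day and 30-day libraries did not overlap, as for 23.2% of all genes.

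This difference was called in 5 of 16 alternatives. The adjusted p was 0.00344 with DESeq2 and 2.28e-07 in edgeR with no filter on low counts. In edgeR without 30-day sample 3 it was 0.0312, and without 90-day sample 1 it was 0.0384. Without 90-day sample 2 the log2 difference was 0.63 and the adjusted p 0.173 in edgeR. Sample 2 at 90 days also had the highest summed level of immune markers, 232 CPM of a 90-day range of 136 to 232 CPM, and of myoepithelial markers, 592 CPM of a range of 419 to 592 CPM. It had the highest endothelial sum of the 9 libraries, 71.4 CPM. Its pericyte sum was 65.8 CPM, as was that of 30-day sample 3. It had the lowest acinar sum, 304584 CPM of a 90-day range of 304584 to 448195 CPM. At 30 days the immune, myoepithelial and acinar sums ranged over 89.0 to 173 CPM, 304 to 423 CPM and 446363 to 634572 CPM. Fibroblast markers summed to 342 to 548 CPM on day 30, 332 to 484 CPM on day 60 and 423 to 493 CPM on day 90. Between 90 and 30 days, 2 of 6 acinar markers were called lower and 1 of 6 myoepithelial markers higher in edgeR, with 5 and 6 at an unadjusted p under 0.05. Of 6 markers of granular and other ducts 2 were called higher in edgeR, with 3 at an unadjusted p under 0.05. Over all genes the shares for this comparison were 3.57% called and 16.8% at an unadjusted p under 0.05. Of the 6 endothelial markers 0 were called in edgeR and 0 had an unadjusted p under 0.05, and of the 6 fibroblast markers the counts were 0 and 1. No marker of these lists was at 0 in every library. Their part in the result was not tested.

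Ccn3 (ENSMUSG00000037362, chromosome 15, 54745702 to 54754039, plus strand) encodes NOV, a CCN protein often described as opposing Ccn2. It was scarce, at 0.709, 1.25 and 1.48 CPM on day 30 on 10, 21 and 25 counts, 0.820, 0.362 and 0.125 CPM on day 60 on 19, 8 and 3 counts, and 0.877, 1.34 and 1.15 CPM on day 90 on 26, 39 and 23 counts. The 60-day libraries lay below all 90-day libraries, but sample 1 at 60 days exceeded sample 1 at 30 days. The means were 1.15 ± 0.396, 0.436 ± 0.353 and 1.12 ± 0.234 CPM (SD, n = 3). The value for 60 days against the mean of the other times was -1.38 on the log2 scale (SE 0.49, 95% interval -2.41 to -0.34), the opposite sign to Ccn1, with an unadjusted p of 0.0120 and an adjusted p of 0.345 in edgeR. Without 60-day sample 1 it was -2.21, with an adjusted p of 0.147 in edgeR. Between 90 and 30 days the log2 difference was -0.04, with an adjusted p of 0.980 in edgeR.

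Ccn5 (ENSMUSG00000027656, chromosome 2, 163820861 to 163833146, plus strand) encodes WISP2, the CCN protein that lacks the cysteine-knot domain of its relatives. Its level was 0.638, 0.297 and 0.296 CPM on day 30, 0.734, 0.452 and 0.542 CPM on day 60 and 0.573, 0.859 and 0.803 CPM on day 90. These values rest on 5 to 25 counts a library, and every pair of times overlapped. For 60 days against the mean of the other times the log2 difference was 0.07 (95% interval -0.90 to 1.04, adjusted p = 0.977, edgeR). The upper end of that interval is 2.06-fold, and for 60 against 30 days it is 3.26-fold. Among the remaining CCN genes, Ccn4 (WISP1) was at 1.34 ± 0.600, 2.22 ± 0.428 and 2.10 ± 0.629 CPM on days 30, 60 and 90 (SD, n = 3), and its peak value was 0.38 on the log2 scale (adjusted p = 0.743, edgeR). Ccn6 did not pass the filter, at no more than 0.237 CPM in any library.

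Set against gene length the order of the CCN genes changed with time. On the scale of CPM per kilobase of exon, with all annotated exons of a gene merged, Ccn1 was at 1.72 ± 0.0182 and Ccn2 at 4.03 ± 1.08 at 30 days (SD, n = 3). At 60 days Ccn1 was at 10.8 ± 1.45, the highest of the 10 genes, and Ccn2 at 5.51 ± 1.09. At 90 days the order had returned, with Ccn2 at 7.48 ± 2.15 and Ccn1 at 3.25 ± 0.329. The Ccn1 and Ccn2 libraries did not overlap at any of the 3 times. Ccn3 and Ccn5 were at 0.152 to 0.399 throughout and overlapped each other at each time.

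**Figure D4:**
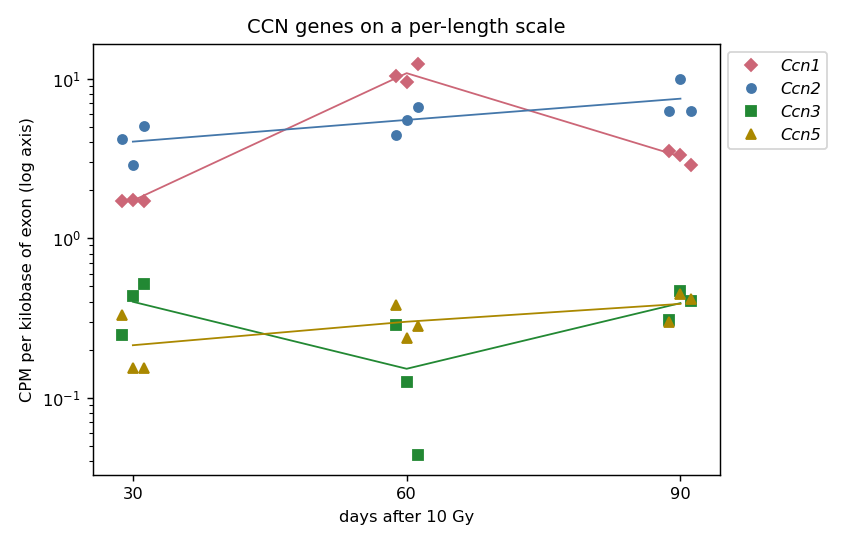
Level of 4 CCN genes in CPM per kilobase of merged exon (log axis) against days after 10 Gy. Points are libraries and lines join the means of 3 libraries. Ccn1 lies above Ccn2 at 60 days only, and Ccn3 and Ccn5 stay below both.

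The same scale ordered the pathway genes. Yap1 led at 30 days with 6.02 ± 0.529 CPM per kilobase, above Ccn2 without overlap. Amotl2 with 2.15, Ajuba with 1.95 and Ccn1 with 1.72 came next, where Ajuba overlapped both neighbours. Tead1 at 1.07 and Lats2 at 0.894 overlapped, as did Ccn3 at 0.399 and Ccn5 at 0.213. At 60 days Ccn1 was above Yap1, which was at 6.84 ± 0.394 and overlapped Ccn2, and the pair of Ajuba and Amotl2 overlapped again. At 90 days Ccn2 and Yap1, Amotl2 and Ajuba, Tead1 and Lats2, and Ccn3 and Ccn5 overlapped. Merging exons lowers the value of genes with many isoforms, such as Tead1, with 13570 bases of merged exon against 2019 in Ccn1.

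Yap1 (ENSMUSG00000053110, chromosome 9, 7931999 to 8004596, minus strand) encodes the coactivator itself. Its level was 50.5, 56.6 and 60.1 CPM on day 30, 60.3, 62.3 and 67.3 CPM on day 60 and 59.8, 61.2 and 57.6 CPM on day 90. The 60-day libraries were just above the 30-day ones without overlap, by 0.18 on the log2 scale (95% interval -0.03 to 0.39, adjusted p = 0.480, edgeR). Tead1 (ENSMUSG00000055320, chromosome 7, 112679318 to 112906807, plus strand), a DNA-binding partner of YAP, was at 13.3, 15.0 and 15.5 CPM on day 30, 15.5, 15.3 and 20.1 CPM on day 60 and 14.6, 16.7 and 14.8 CPM on day 90. Its highest library was 60-day sample 3, and the other 60-day libraries lay within the range of the other times. Its difference for 60 days against the mean of the other times was 0.18 on the log2 scale (95% interval -0.07 to 0.43, adjusted p = 0.681, edgeR).

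Lats2 (ENSMUSG00000021959, chromosome 14, 57689662 to 57758388, minus strand) encodes a Hippo kinase that phosphorylates YAP and is also a YAP target. Its level was 5.88, 7.49 and 5.33 CPM on day 30, 6.78, 7.28 and 6.93 CPM on day 60 and 7.65, 7.84 and 7.03 CPM on day 90, and every pair of times overlapped. Its value for 60 days against the mean of the other times was 0.03 on the log2 scale (95% interval -0.29 to 0.35, adjusted p = 0.971, edgeR). Amotl2 (ENSMUSG00000032531, chromosome 9, 102716672 to 102733418, plus strand) encodes an angiomotin-like junction protein that binds YAP. It was at 13.0, 12.8 and 14.8 CPM on day 30, 14.8, 16.0 and 13.0 CPM on day 60 and 15.3, 14.2 and 13.0 CPM on day 90. The times overlapped, and the log2 difference for 60 days against the mean of the others was 0.07 (95% interval -0.17 to 0.32, adjusted p = 0.884, edgeR).

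Ajuba (ENSMUSG00000022178, chromosome 14, 54567472 to 54577558, minus strand) encodes a LIM-domain protein that restrains LATS kinases at cell junctions under tension. Its level was 5.17, 7.91 and 8.23 CPM on day 30, 9.45, 9.45 and 8.34 CPM on day 60 and 8.23, 7.39 and 7.93 CPM on day 90. The 60-day libraries lay above all others, by a narrow margin. For 60 days against the mean of the other times the log2 difference was 0.28 (1.21-fold, 95% interval -0.04 to 0.60, adjusted p = 0.599, edgeR), so a peak above 1.52-fold lies outside the interval. Libraries of 60 and 30 days did not overlap for 2 of the 8 genes, Ajuba and Yap1, as for 16.9% of all genes. Between 90 and 60 days they did not overlap for Ajuba and Ccn3, as for 15.9% of all genes.

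Ankrd1 (ENSMUSG00000024803, chromosome 19, 36111961 to 36120099, minus strand) encodes a nuclear ankyrin-repeat protein of muscle that YAP induces in many cultured cells. It had 0, 2 and 0 counts at 30 days, 0 in all libraries at 60 days, and 2, 1 and 0 counts at 90 days. This is under the 3-count limit in each library, so no level or change was detectable. The skeletal muscle markers summed to 1.91 to 3.30 CPM over the 9 libraries, with Myh4 at 0 in all of them.

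The exons of Ccn2, Yap1 and Lats2 overlap those of other annotated genes, and neither the annotation nor the use of strand in the counting is given in the sources used here. The overlapping genes held few counts over the 9 libraries. Gm15270, on the strand opposite to Ccn2, had 8 against 3359 for Ccn2. Gm49361, on the same strand as Lats2, had 1 against 1378, and Gm20416, opposite Yap1, had 0. These counts do not show how reads in shared exons were assigned, or whether some were left out. Tead1 overlaps other genes only outside its exons, and Ccn1, Ccn3, Ccn5, Amotl2, Ankrd1 and Ajuba overlap no annotated gene.

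The wider pathway was read from lists of named genes, chosen with earlier results of these data known. The counts below stand beside these shares of all 15224 genes in edgeR. For 60 against 30 days 1.56% were called and 12.4% had an unadjusted p under 0.05. For 60 days against the mean of the others the shares were 0.256% and 9.45%. None of the other 6 TEADs and co-activators, TAZ (Wwtr1) among them, passed the test in any comparison in edgeR. At an unadjusted p under 0.05 none of the 6 did, and DESeq2 called none. Their median for 60 days against the mean of the others was -0.12 on the log2 scale. The 17 Hippo kinases and regulators held 1 call in edgeR, Amot, in 60 against 30 days, with 6 genes at an unadjusted p under 0.05. Amot encodes angiomotin, which holds YAP in the cytoplasm, and it was at 12.7, 19.2 and 17.9 CPM on day 30, 20.7, 31.7 and 34.9 CPM on day 60 and 24.6, 25.0 and 26.2 CPM on day 90. It rose by 0.81 (log2, SE 0.18, adjusted p = 0.0364, edgeR), with all 60-day libraries above all 30-day ones, and the call was lost in 8 of 16 alternatives. The adjusted p in edgeR was 0.136 with library-size scaling and 0.0799 with the 6 samples of the comparison alone. It was 0.0528 to 0.138 without any one of the 30-day samples, 0.189 and 0.0761 without 60-day sample 2 or 3, and 0.0635 without 90-day sample 3. None of the 17 passed in the test of 60 days against the mean of the others, where 3 had an unadjusted p under 0.05 and DESeq2 called 0. Amot was called there in 2 of 15 alternatives, with no filter (adjusted p = 0.000902, edgeR) and without 60-day sample 1 (adjusted p = 0.0153, edgeR). For 90 against 30 days its log2 difference was 0.60 (adjusted p = 0.0839, edgeR), and it was called in 6 of 16 alternatives, among them DESeq2 (adjusted p = 0.0321).

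Of 17 other genes of a published YAP and TEAD target signature, 16 passed the filter. None was called for 60 days against the mean of the other times in edgeR, with 2 at an unadjusted p under 0.05 and 0 called by DESeq2, and their median was -0.05 on the log2 scale. Tgfb2, which encodes a TGF-beta ligand, had means of 60.1 ± 4.26, 95.1 ± 11.1 and 97.6 ± 13.4 CPM on days 30, 60 and 90 (SD, n = 3). The log2 difference was 0.66 (SE 0.12, adjusted p = 0.00586) for 60 against 30 days and 0.70 (SE 0.12, adjusted p = 0.00238) for 90 against 30 days, in edgeR, and both calls were kept in 16 of 16 alternatives. Gadd45a, a DNA damage response gene, went from 7.45 ± 0.581 to 8.97 ± 2.25 and 14.2 ± 4.0 CPM (SD, n = 3). It rose between 30 and 90 days by 0.93 (log2, SE 0.22, adjusted p = 0.0225, edgeR), a call lost in 4 of 16 alternatives. These were without 30-day sample 1 or 2 and without 90-day sample 2 or 3, with adjusted p of 0.104, 0.107, 0.116 and 0.115 in edgeR. Both genes had their highest mean at 90 days, but neither was called between 90 and 60 days in edgeR. The log2 difference there was 0.04 for Tgfb2 (adjusted p = 0.944, edgeR), with its sign changed in 3 of 16 alternatives. For Gadd45a it was 0.66 (adjusted p = 0.258, edgeR), called in 1 of 16 alternatives.

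The receptors of CCN proteins and other inputs to Ccn1 were counted in the same way. Of 10 CCN receptors, integrin subunits, Sdc4, Lrp1 and Lrp6, 0 were called in any comparison in edgeR or DESeq2. For 60 days against the mean of the others 2 had an unadjusted p under 0.05, and the median was 0.12 on the log2 scale. Of 11 genes of serum response factor and its cofactors, 0 were called in edgeR or DESeq2, with 2 at an unadjusted p under 0.05 and a median of 0.03 that was -0.04 with library-size scaling. The 17 immediate early genes, which cells switch on within minutes of a stimulus, held 1 gene called for 60 days against the mean of the others in edgeR, with 5 at an unadjusted p under 0.05 and a list median of -0.11. DESeq2 also called 1 there, and for 60 against 30 days it called 4 of the 17, 2 higher and 2 lower, where edgeR called 1. Of all 15224 genes DESeq2 called 148 in the first comparison and 376 in the second. In edgeR the shares of all genes were 0.256% and 1.56% called, and 9.45% and 12.4% at an unadjusted p under 0.05. The gene called at the peak in edgeR was Dusp1, a phosphatase that switches off MAP kinases.

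Dusp1 was at 3.97, 6.78 and 6.22 CPM on day 30, 21.4, 19.1 and 38.8 CPM on day 60 and 8.29, 5.64 and 6.48 CPM on day 90. All 3 libraries at 60 days lay above all others, as for Ccn1. Its 60-day peak was 2.08 on the log2 scale (SE 0.24, adjusted p = 0.00336, edgeR). It rose between 30 and 60 days by 2.21 and fell by 1.96 between 60 and 90 days, with adjusted p of 0.00394 and 0.0181 in edgeR, and the second of these calls was lost in 3 of 16 alternatives. These were library-size scaling and leaving out 90-day sample 2 or 3, with adjusted p of 0.167, 0.131 and 0.0893 in edgeR. Nr4a1, an orphan nuclear receptor of the same list, went the other way. It was at 83.0 ± 13.6, 58.6 ± 6.38 and 58.8 ± 7.93 CPM on days 30, 60 and 90 (SD, n = 3), and fell by 0.49 on the log2 scale between 30 and 90 days (adjusted p = 0.0366, edgeR), a call lost in 6 of 16 alternatives. With library-size scaling its log2 difference was -0.25 and the adjusted p 0.386 in edgeR. Without 30-day sample 1 or 2, 60-day sample 2, or 90-day sample 2 or 3 the adjusted p was 0.230, 0.0547, 0.0631, 0.170 and 0.169 in edgeR. Between 30 and 60 days its log2 difference was -0.50 (adjusted p = 0.0568, edgeR), and it was called in 6 of 16 alternatives, with DESeq2 among them (adjusted p = 0.0245).

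**Figure D5:**
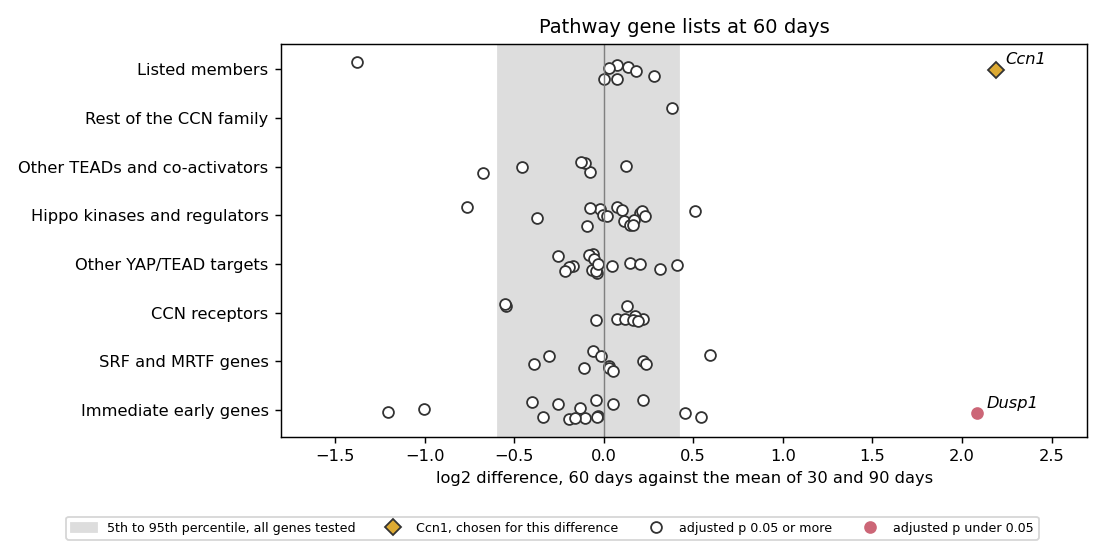
Log2 difference between 60 days and the average of the other times for the tested genes of each list. Each point is a gene, filled where adjusted p is under 0.05 in edgeR, and the grey band spans the 5th to 95th percentile of all genes tested. Ccn1 (diamond, 2.19, chosen for this difference) and Dusp1 (2.08) stand apart from the other genes on the high side. On the low side Ccn3 (-1.38) and the lowest immediate early gene (-1.21) also lie outside the band, without a call.

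Genes with the course most like that of Ccn1 were ranked by Pearson's r of log2 CPM (prior count 2) over the 9 libraries, among 13013 genes with a mean of at least 1 CPM. They are a description, since the 9 libraries share the time groups. The first was Stim1, the calcium sensor of the endoplasmic reticulum, with r = 0.955, although its level moved only from 62.6 ± 1.04 to 68.5 ± 1.45 and 64.8 ± 0.964 CPM (SD, n = 3). Next came Slc25a25, a mitochondrial ATP-magnesium carrier, with r = 0.953 and 18.3 ± 1.87, 35.6 ± 5.92 and 22.8 ± 1.07 CPM. Sik1, a salt-inducible kinase, had r = 0.945 and 17.4 ± 1.36, 31.7 ± 3.62 and 19.9 ± 3.22 CPM. Tent5a followed with r = 0.939 and 55.6 ± 5.77, 98.2 ± 14.9 and 67.0 ± 6.54 CPM, and Mfsd4a with r = 0.939 and 23.3 ± 0.980, 31.9 ± 2.07 and 25.7 ± 1.11 CPM. None of these 5 belongs to the further lists of CCN, YAP or TEAD genes used here, which were not left out of the ranking. Among the 8 other genes followed here, r with Ccn1 was 0.724 for Yap1, 0.622 for Ajuba, 0.606 for Tead1, 0.346 for Amotl2, 0.335 for Lats2, 0.299 for Ccn2, 0.295 for Ccn5 and -0.751 for Ccn3.

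Marker levels of cell types were set beside the peak of Ccn1. The 6 acinar markers summed to 446363 to 634572, 353603 to 516717 and 304584 to 448195 CPM on days 30, 60 and 90. For 60 days against the mean of the others 1 of the 6 was called in edgeR, against 0.256% of all genes. It was Bhlha15, higher at 60 days by 0.63 on the log2 scale (adjusted p = 0.00644, edgeR). Bhlha15 was at 365 ± 23.9, 511 ± 50.7 and 298 ± 42.3 CPM at the 3 times (SD, n = 3). The 6 endothelial markers summed to 58.1 to 66.2 CPM on day 30, 56.5 to 57.2 CPM on day 60 and 60.7 to 71.4 CPM on day 90. For 60 days against the mean of the others 0 of the 6 were called in edgeR, with 1 at an unadjusted p under 0.05. The sign was not shared by all, as the mean of Tek was 4.74, 4.86 and 4.07 CPM on days 30, 60 and 90. The 4 pericyte markers summed to 50.9 to 65.8 CPM, 50.2 to 61.3 CPM and 45.9 to 65.8 CPM at the 3 times, which overlap. The 6 markers of granular and other ducts summed to 17931 to 22710 CPM on day 30, 26861 to 31354 CPM on day 60 and 22744 to 28186 CPM on day 90. None of these markers was at 0 in every library. Of the 4 pericyte and 6 duct markers 0 were called for 60 days against the mean of the others in edgeR. Of the duct markers 3 had an unadjusted p under 0.05 there. The duct sum was higher at 60 than at 30 days, but it was mostly Klk1, at 19201, 22446 and 19610 CPM on days 30, 60 and 90. Of the 6 duct markers 4 had a log2 difference above 0 for 60 against 30 days. In edgeR 2 of these markers were called there, against 1.56% of all genes. Krt7 was at 115 and 114 CPM on days 30 and 60, and Ascl3 at 42.2 and 34.9 CPM. The part of any cell type in the peak of Ccn1 was not tested.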

How the data were processed

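The authors deposited raw read counts per gene, whole numbers for 54532 Ensembl gene identifiers, made with fastp, STAR and featureCounts on mm10 per the submitters' processing notes. Their versions, the annotation and the use of strand are not given in the sources used here. Per the labels' protocols, RNA was treated with DNase I and libraries were made with a SMARTER mRNA-seq kit. A further 3 columns match no listed sample and were not used. The day and number in each column name gave its sample, and samples were grouped by time point, 3 libraries each. Libraries held 16541396 to 26065856 counts. The 3-count limit covers counting error only, and the 95% intervals come from the fit, which includes the spread between samples.

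Symbols came from the gene name table, and positions and exon lengths from GENCODE M21 (GRCm38), looked up by identifier. Genes were kept with filterByExpr (minimum count 10) in edgeR 4.0.16 under R 4.3.3 with limma 3.58.1. All 9 libraries were fitted in one model with a term for time, TMM scaling and robust quasi-likelihood tests. P-values were Benjamini-Hochberg adjusted over all 15224 genes, with a threshold of 0.05. Alternatives were library-size scaling, DESeq2-type size factors, DESeq2 1.42.0, no filter, a filter of 10 counts in every sample, the 6 samples of a comparison alone, each sample left out, and a replicate block. The 10 genes and the lists were chosen with earlier results of these data known. Named besides the 10 were up to 3 called genes of each list, smallest adjusted p first, and the 5 genes most like Ccn1. Libraries of a time point differed by more than counting noise, so none was counted as a duplicate.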

Additional observations from a re-analysis of the deposited data

How the results depend on the processing

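Ccn1 kept its direction in each alternative and comparison: 60 against 30 days gave log2 2.54 to 2.73, 90 against 60 days -1.81 to -1.56, 90 against 30 days 0.85 to 1.15, and 60 days against the mean of the others 2.08 to 2.27. Apart from Ccn1, 0 of the members were called in the other 3 comparisons under the alternatives run. For 90 against 30 days the count was 1, Ccn2, with DESeq2 and with no filter, and 0 to 1 on leaving out a sample. Genes called in 60 against 30 days, 90 against 60 days, 90 against 30 days and the 60-day peak were 376, 150, 867 and 148 with DESeq2 (main 238, 39, 544 and 39) and 459, 354, 1045 and 230 with no filter. Library-size scaling gave 90 in 60 against 30 days and 20 for the peak. On leaving out each sample, counts ran 73 to 244, 16 to 103, 184 to 703 and 13 to 81. The lowest came without 60-day sample 2, 90-day sample 2, 30-day sample 1 and 60-day sample 2, in that order. The cause was not tested. Library-size scaling moved the median of all genes to 0.24 (log2) in 90 against 30 days and 0.17 in 90 against 60 days, where it gave 406 higher and 34 lower calls (main 275 and 269) and 19 and 9 (main 14 and 25).

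Whether the sample numbers pair the libraries was not settled. Same-numbered pairs correlated at -0.0600 to 0.191 in their deviations, with 1 of 9 over 0.1, and other pairs at -0.210 to 0.189. Of the 9 samples 4 were closest to their own number. With the replicate block more genes were called in each comparison: 270 in 60 against 30 days and 92 in 90 against 60 days (main 238 and 39). There were 717 in 90 against 30 days and 73 for the peak (main 544 and 39). Apart from Ccn1, Ccn2 was the 1 member called in 90 against 30 days, with adjusted p = 0.0450 in edgeR. Ccn3 and Ccn5 rest on few counts, and a filter of 10 counts in every sample removes both.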
